A study of Mus musculus with 12 samples.

Results

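Neurog2, Eomes, Neurod4, Insm1, Neurod1, Neurod2, Neurod6, Bhlhe22 and Prox1 are transcription factors that act one after another as a neural progenitor of the dentate gyrus becomes a granule neuron. These 9 genes were chosen by symbol, as a cascade of proneural factors, and all 9 were found among the 27998 genes of the single-cell matrices and, through their Entrez identifiers, among the 40814 genes of the neurosphere count table. Bhlhe22 was taken in because it had been noted as lower in Larp7 knockout cultures, so its culture values are a description and carry no test. Proneural basic helix-loop-helix (bHLH) factors such as Neurog2 bind E-box motifs together with E-protein partners, switch on Notch ligands and further bHLH genes, and so commit dividing progenitors to a neuronal fate. In the dorsal forebrain this runs from Neurog2 through the T-box factor Eomes (Tbr2), the mark of intermediate progenitors, to the Neurod genes of young neurons. Prox1, a homeobox factor, is required for granule neuron identity and is already made by the progenitors of the dentate gyrus.

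The study asked how loss of Larp7, a protein that stabilizes the 7SK RNA and thereby holds the elongation kinase P-TEFb inactive, affects dentate gyrus neurogenesis in mice. Single-cell RNA was counted in dentate gyrus at postnatal day 7 (P7) from wild-type, Larp7f/f;nestin-Cre and Larp7f/f;Emx1-Cre mice, with 3 to 4 gyri of littermates combined into 1 library per genotype. Bulk RNA was counted in neurospheres grown from P1 dentate gyrus of wild-type (Larp7f/f without Cre, by the study's account) and Larp7f/f;Emx1-Cre mice and kept, by the labels, for 2 days in medium with bFGF, in 2 wild-type and 3 knockout cultures. The nestin promoter drives Cre throughout the neural lineage and in some other organs, and Emx1-Cre acts in dorsal forebrain progenitors and their progeny, so that microglia and endothelial cells keep an intact Larp7 gene in both mutants. The titles and the genotype entries of the 2 mutant P7 libraries name opposite Cre drivers. The library titled nestin-Cre held 7177 barcodes and the library titled Emx1-Cre held 6821. For nestin-Cre the paper counts more cells after quality control than the smaller of these libraries has barcodes. The paper's naming thus goes with the titles, and the titles were followed here. The libraries are called the nestin-Cre and the Emx1-Cre library below, and every statement that sets the 2 mutants apart depends on that choice. With 1 library per genotype no test across animals was possible, and all intervals given for single cells are 95% intervals for counting error only.

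The wild-type single-cell library stood apart from both mutants. It held 28918491 unique molecular identifiers (UMIs) over 12876 barcodes, against 26689878 over 7177 and 28537738 over 6821, and its kept cells had a median of 1782 UMIs, against 3644 and 3873 in the nestin-Cre and Emx1-Cre libraries. An unnamed cluster of low depth held 33.1% of the kept wild-type cells and 0.913% and 0.934% of the mutant ones, and it was left out of the lineage. The erythroid-like cluster 7 held 8.48% of wild-type cells against 0.165% and 0.184% of mutant ones, and haemoglobin genes made up 0.0154%, 0.00452% and 0.00497% of the UMIs of lineage cells. The part of this in the results was not tested. Pairs of libraries shared 11 to 23 barcodes. Larp7 RNA checked the labels: over the granule lineage it measured 64.0 CPM (counts scaled to a common total) in the wild-type, 10.9 in the nestin-Cre and 12.6 in the Emx1-Cre library, while microglia-like cells had 57.6, 38.1 and 39.6 CPM. Interneuron-like cells, which could have told the 2 drivers apart, gave only 3, 1 and 4 Larp7 UMIs.

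Cells of the granule lineage were ordered from radial glia-like (RGL) cells through neuronal intermediate progenitor cells (nIPC) to neuroblasts by diffusion pseudotime, with the 9 factors left out of the clustering. The lineage held 3641 wild-type, 4718 nestin-Cre and 4488 Emx1-Cre cells. Named in order, it ran from RGL-like cluster 2 through unnamed cluster 13 (led by Thrsp), nIPC-like cluster 5, neuroblast-like cluster 4 (led by Tac2 and Pcp4) and neuroblast-like cluster 1 (led by Cntn2 and Stmn2) to unnamed cluster 3 (led by Gal, Sema5a and Rbfox1). Unnamed cluster 11, of low depth, fell between clusters 4 and 1, and unnamed cluster 19 (20, 78 and 72 cells, led by Cdh8 and Thsd7a) was spread over bins 6 to 10. The nIPC-like name rested on 7 raised nIPC markers, while its 10 leading genes were cell division genes such as Top2a and Mki67. No cluster met the limits for immature granule neurons. The ordered cells were divided into 10 bins of equal size over the 3 libraries together, and the UMIs of each factor were summed per bin and library. CPM, counts per 1000000, sets the UMIs of a gene against all UMIs of the same cells.

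Along this order the 9 factors fell into an early and a late group in all 3 libraries. The 4 early factors, Neurog2, Eomes, Neurod4 and Insm1, had their highest level in bin 3 or 4, where nIPC-like cells made up 69.7% and 83.6% of the cells. The 5 late factors, Neurod1, Neurod2, Neurod6, Bhlhe22 and Prox1, had theirs between bins 7 and 10, among neuroblast-like cells and cluster 3. Over the main setting and 6 other ways of clustering, filtering or thinning the cells, the early factors peaked in bins 3 to 5 and the late ones in bins 6 to 10.

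Neurog2, the proneural bHLH factor at the head of the cascade, had its highest level in bin 3 of all 3 libraries. Its level was 14.9 CPM in bin 1 and 280.0 in bin 3 of the wild-type library. The peak in bin 3 measured 234.6 CPM in the nestin-Cre and 352.8 in the Emx1-Cre library. Bins 3 and 4 differed little within the wild-type library, at 280.0 and 273.7 CPM, and in each of 6 alternative settings the wild-type peak was in bin 4. Its place ahead of the other early factors was therefore not kept in that library.

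Eomes, Neurod4 and Insm1 had theirs in bin 4. Eomes reached 488.1 CPM in the wild-type, 667.8 in the nestin-Cre and 651.1 in the Emx1-Cre library. Neurod4, a bHLH factor of committed neuronal precursors, reached 117.2, 122.6 and 144.5 CPM. Insm1, a zinc-finger factor that promotes the formation of intermediate progenitors, reached 398.0, 290.2 and 380.8 CPM, and it was still at 63.0, 45.0 and 77.9 CPM in bin 10. Eomes was still higher in the mutants in bin 5, at 569.9 and 605.2 against 451.6 CPM, and lower in bin 6, at 248.6 and 255.5 against 357.7 CPM. The cells of bins 5 and 6 were mostly cluster 4, with 85.2% and 61.8%.

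Neurod1, a bHLH factor that young granule neurons need to survive and mature, climbed along the order. It measured 16.9 CPM in bin 1, 381.9 in bin 4 and 1451 in bin 10 of the wild-type library, and its highest levels were 2363 CPM (bin 9) in the nestin-Cre and 2340 (bin 10) in the Emx1-Cre library. Neurod2, a bHLH factor of postmitotic excitatory neurons, followed with highest levels of 376.2, 496.8 and 516.6 CPM. Neurod6 (Nex), a close relative with overlapping function, peaked earlier, in bin 7 in all 3 libraries, at 270.1, 251.6 and 290.3 CPM.

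Bhlhe22, a bHLH repressor made by differentiating cortical and hippocampal neurons, had its highest level in bin 10 of the wild-type library, at 475.1 CPM, and at 609.0 (bin 9) and 600.5 CPM (bin 10) in the mutants. Prox1 differed from the other late factors in its starting level. It was already at 121.1, 167.0 and 147.1 CPM in bin 1, the RGL-like cells, and ended at 816.3, 1113 and 1062 CPM in bin 10. In the mutants the RGL-like Prox1 values lay close to the 140.9 and 142.1 CPM of microglia-like cells, which should not make Prox1. Only the wild-type value stood clear of that level, at 121.1 against 54.2 CPM.

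**Figure D1:**
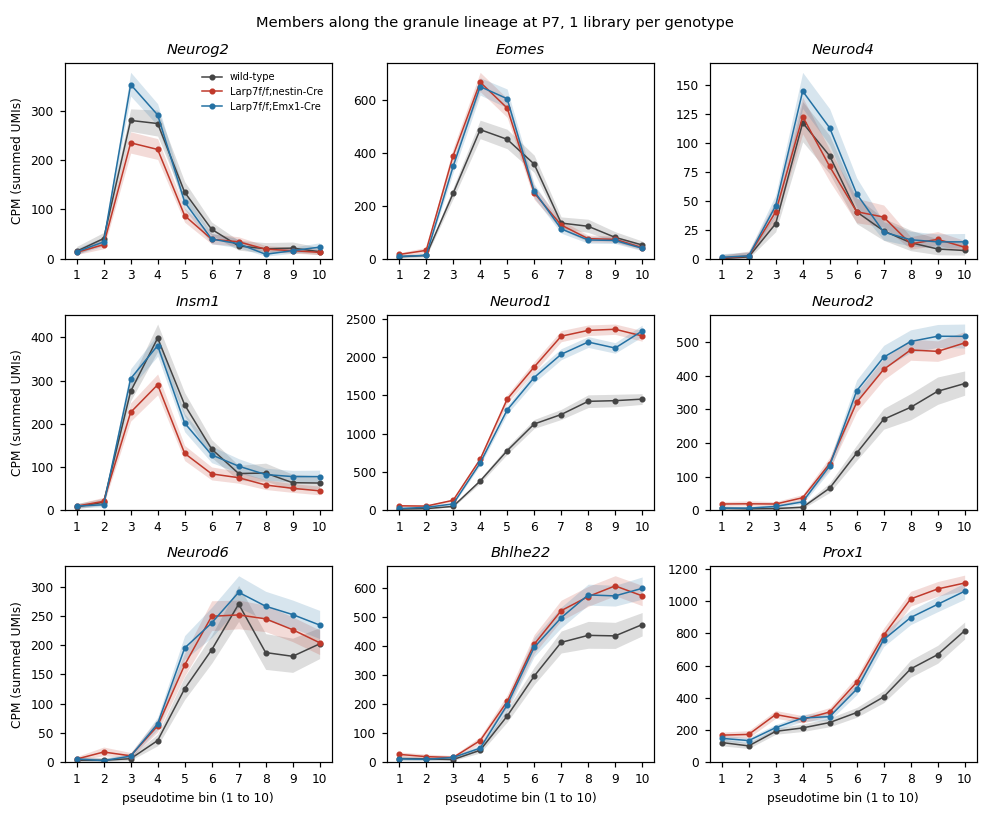
Each panel plots 1 factor along the granule lineage, with the pseudotime bin (1 to 10) on the x axis and the level in CPM from summed UMIs on the y axis. Points are the 3 P7 libraries and shaded bands are 95% Poisson intervals for counting error. Neurog2 is highest in bin 3 and Eomes, Neurod4 and Insm1 in bin 4, while Neurod1 climbs to 1451 CPM in the wild-type and to 2363 and 2340 CPM in the nestin-Cre and Emx1-Cre libraries.

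The likeness of the profiles drew the same 2 groups. Over 54 groups of cells (cluster by library, each with at least 50 cells) and 12323 genes, the correlation of log2(CPM + 10) was 0.967 between Neurod1 and Neurod6, 0.958 between Neurod1 and Bhlhe22 and 0.899 between Eomes and Neurod4. Neurog2 was most like Insm1 among the members (r = 0.825) and unrelated to Neurod2 (r = -0.06). The groups share 3 libraries and lineage neighbours, so these values describe the profiles and were given no test.

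The 2 genes most like each factor outside the 9 were taken by the same measure, and for several factors another of the 9 was nearer still. For Neurog2 they were Hmgn2 (0.886) and Ube2s (0.855), and for Eomes Mfap4 (0.912) and Elavl2 (0.897). For Neurod4 they were Myo1a (0.874) and Tac2 (0.856), below its 0.899 with Eomes, and for Insm1 Mfap4 (0.873) and Ezh2 (0.855). Sema3c, a secreted semaphorin, was the nearest gene outside the 9 for 3 late factors, namely Neurod1 (0.974), Neurod6 (0.961) and Bhlhe22 (0.954). The second nearest were Shb for Neurod1 (0.966) and Neurod6 (0.952) and Hecw1 for Bhlhe22 (0.954). For Neurod2 they were Cldn3 (0.935) and Sh3rf3 (0.934), below its 0.949 with Bhlhe22, and for Prox1 Ttc28 (0.920) and Epha4 (0.912).

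In cluster 4 Eomes was found more often in cells with Neurog2, while Insm1 and Neurod4 differed less between cells with and without Eomes. In neuroblast-like cluster 4, with every cell thinned to 1500 UMIs, Eomes was detected in 58.1% of the 86 wild-type cells with a Neurog2 UMI and in 41.1% of the other 579. The same shares were 60.9% and 43.3% in the nestin-Cre and 55.3% and 42.6% in the Emx1-Cre library. Insm1 was in that cluster as frequent in cells with an Eomes UMI as in those without, at 22.2% and 22.3% in wild-type, 14.1% and 13.8% in nestin-Cre and 19.6% and 16.6% in Emx1-Cre cells. Neurod4 was found in 10.1% and 7.69% of the wild-type cells with and without an Eomes UMI, with overlapping intervals. In nIPC-like cells the corresponding shares of Eomes in cells with and without Neurog2 were closer, with 46.2% against 39.8%, 64.0% against 59.4% and 55.1% against 54.1%. The contrast between the pairs was not kept there. Insm1 was found in 37.9%, 37.0% and 42.1% of nIPC-like cells with an Eomes UMI. Without one it was found in 34.5%, 28.8% and 35.3%, with overlapping intervals. Neurod1 was detected in 22.6%, 35.5% and 26.9% of nIPC-like cells with a Neurog2 UMI, against 24.8%, 44.5% and 42.6% of those without. The intervals were apart only in the Emx1-Cre library, at 21.9% to 32.3% against 38.1% to 47.1%. Microglia-like cells thinned in the same way had a Neurod1 UMI in 12.3% to 19.2% of cells. In RGL-like cluster 2 the share was 2.7% in wild-type, 6.39% in nestin-Cre and 4.91% in Emx1-Cre cells. The wild-type nIPC-like shares thus lay close to that of microglia-like cells and well above that of RGL-like ones.

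Promoter sequence of the late factors is shown because the 3 Neurod genes of this group shared their profile and because proneural bHLH factors bind E-boxes. RefSeq's promoter table for GRCm38.p6 had entries for 7 of the 9 genes, not for Insm1 and Bhlhe22. The letters CANNTG, an E-box read the same on both strands, were searched in the 250 bases before each start site and occur in 66.2% of the 32851 promoters of the table. They were found for 4 of the 7 genes, namely Neurod1, Neurod2, Neurod6 and Prox1, and not for Neurog2, Eomes or Neurod4. Capitals mark the matches, and each sequence is written 5′ to 3′ on the gene's own strand.
Neurod1 (chr2:79456637-79456886, minus strand): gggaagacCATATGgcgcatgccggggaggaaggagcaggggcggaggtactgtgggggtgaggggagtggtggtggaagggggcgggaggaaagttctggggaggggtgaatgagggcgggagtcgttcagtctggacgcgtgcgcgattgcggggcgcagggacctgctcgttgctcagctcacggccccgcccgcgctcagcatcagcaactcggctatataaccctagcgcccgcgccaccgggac
Neurod2 (chr11:98329646-98329895, minus strand): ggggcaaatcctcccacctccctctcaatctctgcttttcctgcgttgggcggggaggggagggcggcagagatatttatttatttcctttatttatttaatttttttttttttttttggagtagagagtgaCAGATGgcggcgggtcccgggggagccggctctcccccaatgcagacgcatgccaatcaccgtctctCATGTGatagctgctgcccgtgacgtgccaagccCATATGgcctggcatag
Neurod6 (chr6:55681264-55681513, minus strand): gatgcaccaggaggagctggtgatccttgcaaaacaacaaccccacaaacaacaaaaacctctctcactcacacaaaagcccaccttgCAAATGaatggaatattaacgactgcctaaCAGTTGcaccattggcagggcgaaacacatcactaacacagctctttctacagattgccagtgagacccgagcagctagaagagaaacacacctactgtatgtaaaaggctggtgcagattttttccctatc
Prox1, first of 2 start sites (chr1:190170828-190171077, minus strand): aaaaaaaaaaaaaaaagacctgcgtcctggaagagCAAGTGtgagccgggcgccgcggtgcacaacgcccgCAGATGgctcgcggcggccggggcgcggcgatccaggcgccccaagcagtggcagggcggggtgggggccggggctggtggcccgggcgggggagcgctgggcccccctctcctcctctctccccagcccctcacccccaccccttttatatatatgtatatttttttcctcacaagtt
The window of Neurod1 held 1 match and that of Neurod2 held 3. Both contained CATATG, which is present in 3.46% of all promoters in the table. Neurod2 and Prox1 contained CAGATG, which with its reverse complement CATCTG is present in 14.4%, and none of the 7 genes contained CAGCTG, present in 13%. The second start site of Prox1 (chr1:190169516-190169765) had no match. These matches are letters in a window and say nothing of binding in these cells.

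In nIPC-like cells, Eomes and Neurod1 were higher in both mutant libraries, while Neurog2 and Insm1 were lower in the nestin-Cre library only. Of the 9 factors, 5 reached at least 1.5-fold above wild-type in the nestin-Cre library and 3 in the Emx1-Cre library, where 7.58% and 5.29% of all genes with at least 100 UMIs did. None was 1.5-fold lower, against 4.02% and 1.8% of all genes. The median log2 ratio over the 9 was 0.61 in the nestin-Cre and 0.49 in the Emx1-Cre library, beside 0.03 and 0.05 over all genes. Both comparisons share the wild-type library.

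Neurog2 measured 302.6 CPM in wild-type, 254.9 in nestin-Cre and 351.4 in Emx1-Cre nIPC-like cells. The log2 ratio to wild-type was -0.25 (-0.38 to -0.11) in the first mutant and 0.22 (0.10 to 0.34) in the second. The 2 mutants thus lay on either side of wild-type, and their own difference was -0.46 (-0.59 to -0.34). Neurog2 (chr3:127632733-127635636 in GRCm38.p6) lies on the same chromosome as the floxed Larp7 gene (chr3:127536714-127553349). So does Bhlhe22 (chr3:18054325-18057514), and the part of this in the ratios was not tested.

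Eomes measured 401.0, 613.4 and 573.1 CPM in the same order, with log2 ratios of 0.61 (0.51 to 0.72) and 0.52 (0.42 to 0.62). Thinned to 1500 UMIs per cell, 41.9% of wild-type, 60.7% of nestin-Cre and 54.5% of Emx1-Cre nIPC-like cells had an Eomes UMI, against 7.67%, 2.32% and 3.97% of microglia-like cells. Without thinning the nIPC-like shares were 73.6%, 88.6% and 88.1%, at median depths of 4489.5, 4814 and 4840 UMIs. Eomes had the largest log2 ratio of the 4 early factors in both mutants.

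Neurod4 measured 80.8, 93.8 and 109.9 CPM, with log2 ratios of 0.21 (-0.03 to 0.46) and 0.44 (0.22 to 0.67), so that the nestin-Cre difference was within counting error. Insm1 measured 359.6, 287.1 and 379.6 CPM. Its log2 ratio was -0.32 (-0.45 to -0.20) in the nestin-Cre library and 0.078 (-0.031 to 0.19) in the Emx1-Cre library, and the mutants differed from each other by -0.40 (-0.52 to -0.29). In both mutants the sign of the Insm1 ratio was that of Neurog2.

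Neurod1 had the clearest difference among the late factors of nIPC-like cells, at 223.8 CPM in wild-type against 476.1 and 414.9 in the mutants. Its log2 ratios were 1.09 (0.96 to 1.22) and 0.89 (0.76 to 1.02). Prox1 measured 202.9, 282.2 and 257.0 CPM, with log2 ratios of 0.48 (0.33 to 0.62) and 0.34 (0.20 to 0.49). Neurod6 measured 21.8, 44.7 and 42.9 CPM, with log2 ratios of 1.04 (0.61 to 1.48) and 0.98 (0.56 to 1.40).

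Microglia-like cells should not make any of these factors, so their level was used as a gauge of stray RNA. For several late factors that level was also higher in the mutants. In microglia-like cluster 8 (252, 346 and 212 cells) Neurod1 measured 84.1, 194.1 and 236.5 CPM and Prox1 54.2, 140.9 and 142.1 CPM. Bhlhe22 at 28.8, 56.1 and 60.6 CPM lay above its own nIPC-like levels of 27.0, 52.4 and 38.0 CPM. So did Neurod2, which in the mutants was at 35.9 and 41.9 CPM there and at 27.0 and 19.9 CPM in nIPC-like cells (6.84 CPM in wild-type). The nIPC-like values of Neurod2 and Bhlhe22 were therefore not above those of microglia-like cells, although they count among the factors at least 1.5-fold higher. In bin 1, the RGL-like cells, Neurod1 was at 16.9, 58.7 and 24.2 CPM and Neurod2 at 5.96, 18.7 and 6.35 CPM. Bhlhe22 was there at 11.9, 26.3 and 11.0 CPM. All of these lay below the microglia-like levels, so the gauge does not hold for every cell type. The source of this RNA in microglia-like cells was not tested.

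With the microglia-like level subtracted from each library, a setting added after the data had been seen, the nIPC-like ratio of Neurod1 was 2.02 in the nestin-Cre and 1.28 in the Emx1-Cre library. Eomes kept ratios of 1.55 and 1.42. Prox1 turned, with ratios of 0.950 and 0.772. For Neurod2 and Bhlhe22 the subtracted level was larger than the nIPC-like level itself, so this setting can take away too much. The part of stray RNA in the Prox1 difference was therefore not tested by it. Neurod6 gave 3.57 and 4.88 from small remainders. Neurog2 and Insm1, whose microglia-like level was at most 31.1 CPM, gave 0.845 and 0.815 in the nestin-Cre and 1.18 and 1.07 in the Emx1-Cre library.

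**Figure D2:**
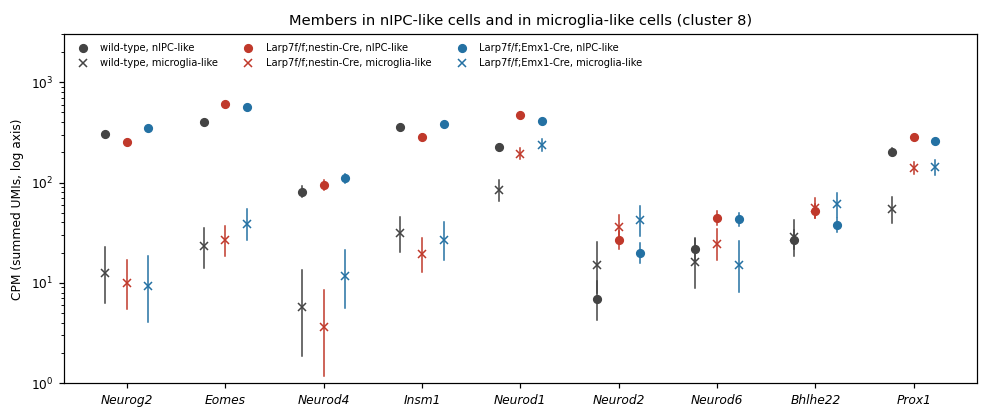
CPM (log axis) of the 9 factors in nIPC-like cells (circles) and in microglia-like cells of cluster 8 (crosses) of the 3 P7 libraries, with 95% Poisson intervals for counting error as vertical lines. Circles of Neurog2, Eomes, Neurod4 and Insm1 stand far above the crosses, those of Neurod1 and Prox1 stand above crosses that are themselves higher in the mutants, and those of Neurod2 and Bhlhe22 lie at or below the crosses.

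In neuroblast-like cells the pattern was simpler: all 5 late factors were higher in both mutant libraries. Neurod1 and Neurod2 were the 2 factors at least 1.5-fold higher in each mutant, where 9.59% of all genes in the nestin-Cre and 6.75% in the Emx1-Cre library were. None of the 9 was 1.5-fold lower, against 8.07% and 3.48% of all genes. The median log2 ratio over the 9 was 0.31 and 0.37, beside 0.01 and 0.05 over all genes.

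Neurod1 measured 1138 CPM in wild-type, 1957 in nestin-Cre and 1755 in Emx1-Cre neuroblast-like cells, with log2 ratios of 0.78 (0.74 to 0.83) and 0.63 (0.58 to 0.67). Neurod2 measured 216.2, 362.3 and 388.5 CPM, with log2 ratios of 0.74 (0.64 to 0.85) and 0.85 (0.74 to 0.95). Neurod6 was closer to wild-type, at 203.1, 252.2 and 262.2 CPM and log2 ratios of 0.31 (0.20 to 0.43) and 0.37 (0.26 to 0.48).

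Bhlhe22 measured 325.2, 429.8 and 419.9 CPM, with log2 ratios of 0.40 (0.31 to 0.49) and 0.37 (0.28 to 0.46). Prox1 measured 383.7, 569.9 and 526.1 CPM, with log2 ratios of 0.57 (0.49 to 0.65) and 0.46 (0.38 to 0.53). After subtraction of the microglia-like level all 5 late factors were still above wild-type, with ratios from 1.17 (Prox1 in the Emx1-Cre library) to 1.72 (Neurod2 in the Emx1-Cre library). They were above 0 on the log2 scale in all 8 alternative settings in both mutants.

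The early factors gave no common direction in neuroblast-like cells. Neurog2, by then low, measured 62.5, 49.9 and 52.2 CPM, with log2 ratios of -0.32 (-0.55 to -0.09) and -0.26 (-0.48 to -0.04). Eomes measured 261.4, 277.8 and 258.4 CPM, with log2 ratios of 0.088 (-0.016 to 0.19) and -0.017 (-0.12 to 0.086), both within counting error. Neurod4 measured 40.8, 49.6 and 53.3 CPM, with log2 ratios of 0.28 (0.02 to 0.54) and 0.38 (0.14 to 0.63). Insm1 was again lower in the nestin-Cre library, at 94.2 CPM against 137.1 in wild-type and 130.2 in Emx1-Cre. Its log2 ratios were -0.54 (-0.70 to -0.38) and -0.07 (-0.22 to 0.07), and the mutants differed by -0.47 (-0.62 to -0.31). The directions of Neurog2, Eomes and Neurod4 in these cells changed in at least 1 of 8 alternative settings, as did that of Insm1 in the Emx1-Cre library.

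Bin by bin, the late factors were higher in the mutants over most of the lineage, not at its end alone. The earliest of these bins, however, held Neurod1 and Prox1 at levels near or below those of microglia-like cells. Among bins with at least 100 UMIs, Neurod1 was above wild-type in 10 of 10 in the nestin-Cre library (ratios of 1.57 to 3.48) and in 8 of 8 in the Emx1-Cre library (1.48 to 1.68). Neurod2 was higher in 6 of 6 bins in both, Bhlhe22 in 7 of 7 in both and Prox1 in 10 of 10 in both. Neurod6 was higher in 7 of 7 in the Emx1-Cre library and in 6 of 7 in the nestin-Cre library, where its ratio in bin 7, the bin of its highest level, was 0.931. For Prox1 the ratio was largest in bin 7, at 1.95 and 1.88. In bins 1 to 3 Neurod1 lay below its microglia-like level in all 3 libraries, at 16.9, 58.7 and 24.2 CPM in bin 1 and 51.3, 130.7 and 83.6 CPM in bin 3. Bins of this kind are among those counted above. Prox1 in bins 1 and 2 lay close to its microglia-like level in the mutants only.

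Eomes crossed over along the lineage. Its ratio was 1.58 in the nestin-Cre and 1.41 in the Emx1-Cre library in bin 3 and 0.617 and 0.576 in bin 8, with 3 of 8 bins above wild-type in both. Insm1 was below wild-type in 8 of 8 bins in the nestin-Cre library and above it in 4 of 8 in the Emx1-Cre library. Neurog2 was below it in 4 of 4 bins and above it in 2 of 5. The bins hold the same stretch of the order but not the same shares of clusters in each library, and the part of this in the crossing of Eomes was not tested.

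**Figure D3:**
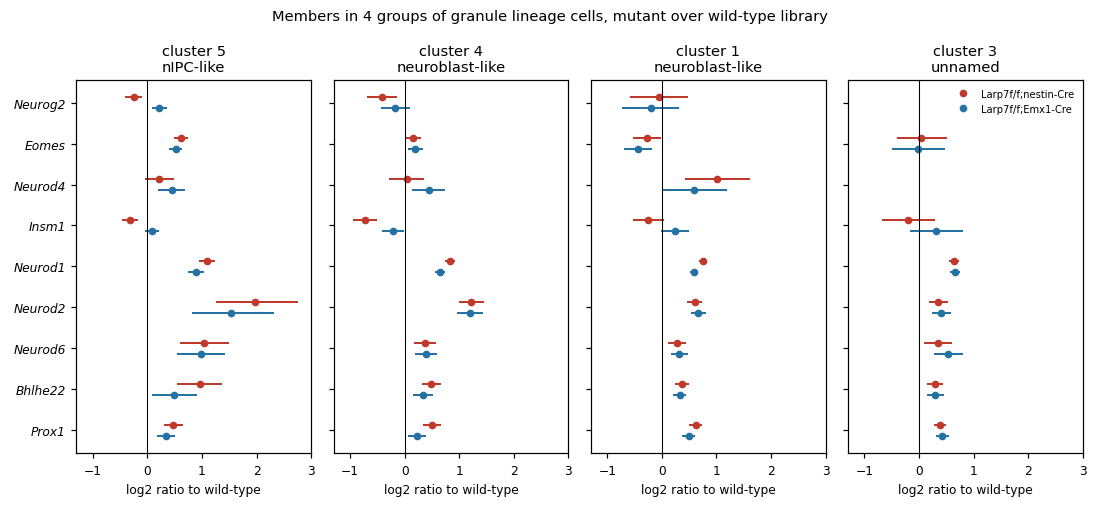
Log2 ratio of each factor to the wild-type library (x axis) in 4 consecutive groups of lineage cells, for the nestin-Cre (red) and Emx1-Cre (blue) libraries, with 95% intervals for counting error as bars. Factors under 100 UMIs in a group are not drawn. Neurod1 lies right of 0 in every group and both mutants, between 0.58 and 1.09. Insm1 lies left of 0 in clusters 5 and 4 of the nestin-Cre library, down to -0.73 in cluster 4. In cluster 3 no factor has its interval wholly left of 0.

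Past the nIPC-like stage, the ratios of Neurod2 were larger in cluster 4, the first neuroblast-like cells, than in cluster 3. In cluster 4, where wild-type cells had 94.7 CPM of Neurod2, the mutants had 221.0 and 217.7 CPM, with log2 ratios of 1.22 (1.01 to 1.44) and 1.20 (0.98 to 1.42). In cluster 3, at the end of the order, Neurod2 measured 361.8, 460.8 and 479.6 CPM and the log2 ratios were 0.35 (0.20 to 0.51) and 0.41 (0.25 to 0.57). Neurod1 kept log2 ratios of 0.63 (0.56 to 0.71) and 0.66 (0.58 to 0.73) there, at 1575, 2446 and 2483 CPM. Insm1 had its largest difference in cluster 4, at 188.9 CPM in wild-type, 114.1 in nestin-Cre and 162.5 in Emx1-Cre, with log2 ratios of -0.73 (-0.93 to -0.52) and -0.22 (-0.40 to -0.03). It was at least 1.5-fold lower there in the nestin-Cre library, as were 7.13% of all genes, and none of the 9 was so in the Emx1-Cre library, against 3.38%. Neurod1 and Neurod2 were at least 1.5-fold higher in cluster 4 of both mutants, as were 9.62% and 6.59% of all genes. Outside the lineage Insm1 was high in interneuron-like cells, at 517.0, 695.8 and 625.9 CPM over 16, 31 and 42 cells.

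Genes that act with, upstream or downstream of the cascade differed in both directions. A list of 18 proneural targets could be read in full in nIPC-like cells, each with 100 UMIs or more. Of these, 4 (Cbfa2t3, Sox11, Tubb3 and Cdk5r1) were at least 1.5-fold higher and 1 (Hes6) lower in the nestin-Cre library, and 3 (Dll3, Cbfa2t3 and Sstr2) were higher and none lower in the Emx1-Cre library. Over all genes these shares were 7.58% higher and 4.02% lower in the nestin-Cre and 5.29% and 1.8% in the Emx1-Cre library. The list had a median log2 ratio of 0.26 in both, beside 0.03 and 0.05 over all genes. Cbfa2t3, a corepressor induced by proneural factors, measured 45.9 CPM in wild-type against 85.5 and 75.5 in the mutants, and it stayed higher in neuroblast-like cells at 56.0, 100.3 and 97.9 CPM. It is named after its values were seen, as are the other genes of this paragraph and the next 2. In neuroblast-like cells 2 of the 17 targets with enough UMIs (Cbfa2t2 and Cbfa2t3) were 1.5-fold higher and 3 (Mfng, Gadd45g and Elavl4) lower in the nestin-Cre library, and 1 of 18 (Cbfa2t3) was higher and none lower in the Emx1-Cre library. Over all genes 9.59% were higher and 8.07% lower in the first and 6.75% and 3.48% in the second.

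Of 10 repressors of proneural factors, 5 reached 100 UMIs in nIPC-like cells. Among all genes there, 7.58% were 1.5-fold higher and 4.02% lower in the nestin-Cre and 5.29% and 1.8% in the Emx1-Cre library. Hes5, the Notch target that represses proneural genes, was 1.5-fold lower in both mutants, at 364.5 CPM in wild-type, 73.2 in nestin-Cre and 202.3 in Emx1-Cre, with log2 ratios of -2.32 (-2.52 to -2.11) and -0.85 (-0.98 to -0.72). Id2, an inhibitor of bHLH dimers, was 1.5-fold higher in the nestin-Cre library, at 246.3 against 159.3 CPM. In neuroblast-like cells, where 7 of the 10 had enough UMIs, Hes5 was again lower (44.2, 11.8 and 20.6 CPM) and Rest higher (10.4, 17.8 and 22.2 CPM).

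None of the 3 E-protein partners and none of the 10 upstream progenitor factors differed 1.5-fold in nIPC-like cells, where the shares over all genes were those just given. In neuroblast-like cells none of the E-proteins did, and of the 8 upstream factors with enough UMIs only Sox9 did, which was higher in the Emx1-Cre library. Among all genes there, 9.59% were higher and 8.07% lower in the nestin-Cre and 6.75% and 3.48% in the Emx1-Cre library. Among 10 other neurogenic bHLH factors 2 had enough UMIs in nIPC-like cells, and Nhlh1 was higher in both mutants, at 31.9 and 28.2 against 13.7 CPM. In neuroblast-like cells 4 of them had enough UMIs and Olig1, of the oligodendrocyte lineage, was lower in both, at 9.15 and 7.84 against 17.1 CPM. Of 15 later excitatory neuron factors 10 had enough UMIs in nIPC-like cells, and Tbr1 was 1.5-fold higher in the nestin-Cre library, at 83.7 against 50.2 CPM, while none was so in the Emx1-Cre library, where it measured 70.9 CPM. In neuroblast-like cells Mef2c was higher and Scrt2 lower in the nestin-Cre library, among 11 with enough UMIs.

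Neurospheres at day 2 of differentiation gave few reads of the early factors and almost none of the Neurod genes. The deposited libraries held 59821311 to 62474602 counts, and CPM here is scaled by library size with TMM factors. Of the 9 factors, 5 (Neurog2, Eomes, Insm1, Bhlhe22 and Prox1) passed the filter on low counts among 17753 genes. Neurod1 had counts of 0 and 0 in the wild-type and 0, 8 and 0 in the knockout cultures, and Neurod6 of 0 and 6 and of 0, 0 and 0. Neurod2 had no count in any of the 5, which allows up to 0.0480 to 0.0502 CPM by a limit of 3 counts per library. Neurod4 had counts of 8 and 0 in the wild-type and 0, 10 and 3 in the knockout cultures. No comparison was made for these 4.

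The cultures were labelled neural cells. They expressed Olig1, an oligodendrocyte lineage factor, at 3348 to 4068 CPM and Olig2 at 1350 to 1610 CPM, while the neuroblast markers Nhlh1, Nhlh2 and Tac2 were under 0.1 CPM. The Larp7 check held, with 42.8 and 35.0 CPM in the wild-type and 4.17, 6.35 and 4.39 CPM in the knockout cultures, a log2 fold change of -2.97 (SE 0.21, adjusted p = 0.0198 in edgeR's quasi-likelihood test). The labels number the replicates but do not say that they came from separate cultures, so p-values measure the spread between these libraries. In bulk RNA, fewer cells of a type and less RNA per cell cannot be told apart.

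None of the 4 factors that were tested passed an adjusted p of 0.05 in edgeR's quasi-likelihood test, a threshold that 6 of 17753 genes (0.0338%) passed, 3 higher (0.0169%) and 3 lower (0.0169%). At an unadjusted p under 0.05, as for 21.7% of all genes, 1 of the 4 did, and in DESeq2, which called 1586 genes in all, 1 passed an adjusted p of 0.05. Both times it was Insm1. Of the 4 tested factors, 1 had groups without overlap, again Insm1, as had 42.6% of all genes.

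Neurog2 measured 1.69 and 6.07 CPM in the wild-type and 2.35, 1.13 and 0.636 CPM in the knockout cultures. The groups overlapped, and the 2 wild-type cultures differed more from each other than the lower one did from any knockout culture. The log2 fold change was -1.50 (SE 0.67, adjusted p = 0.253 in edgeR), and it was -0.30 without the second wild-type culture and -2.15 without the first (adjusted p = 0.888 and 0.0785). Eomes was under 1 CPM in every culture, with 0.498 and 0.597 against 0.588, 0.243 and 0.302 CPM. Its groups overlapped too, with a log2 fold change of -0.54 (SE 0.55, adjusted p = 0.606 in edgeR).

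Insm1 measured 3.49 and 5.05 CPM in the wild-type and 9.02, 7.39 and 6.77 CPM in the knockout cultures. All 3 knockout cultures were above both wild-type ones, as for 21.3% of all tested genes. The log2 fold change was 0.86 (SE 0.22, adjusted p = 0.126 in edgeR), and over the alternatives the adjusted p lay between 0.0140 and 0.347. In Emx1-Cre tissue, the driver of these cultures, the nIPC-like log2 ratio of Insm1 was 0.078, within counting error.

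Bhlhe22 measured 9.47 and 8.41 CPM in the wild-type and 2.17, 2.98 and 2.39 CPM in the knockout cultures, which averaged 8.94 ± 0.74 (SD, n = 2) and 2.51 ± 0.42 CPM (SD, n = 3). The groups did not overlap, as for 21.3% of all tested genes in this direction, and the log2 fold change was -1.83. These are the values for which the gene was chosen. In P7 tissue Bhlhe22 was instead higher in both mutants in neuroblast-like cells, as given above. Cultures and tissue differ in age, cells and assay, and the difference between them was not tested.

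Prox1 measured 37.3 and 49.3 CPM in the wild-type and 34.0, 42.3 and 36.9 CPM in the knockout cultures. The groups overlapped, with a log2 fold change of -0.20 (SE 0.15, adjusted p = 0.480 in edgeR). Without the second wild-type culture it was 0.017.

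**Figure D4:**
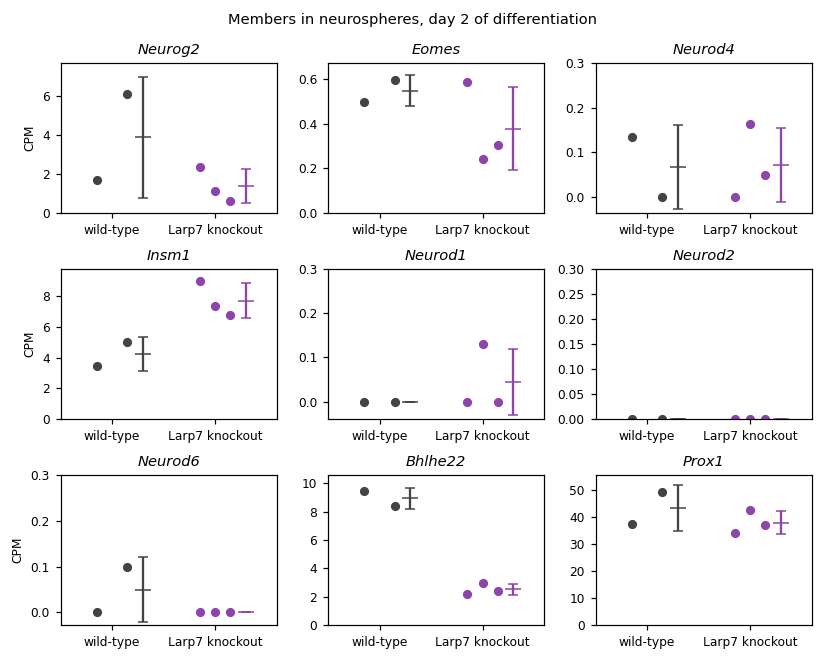
CPM of each factor in the 2 wild-type and 3 Larp7 knockout neurosphere cultures, 1 point per culture, with the mean and SD beside the points. Axes differ between panels. Bhlhe22 lies between 8.41 and 9.47 CPM in wild-type and between 2.17 and 2.98 CPM in knockout cultures, Insm1 lies higher in all 3 knockout cultures, and Neurod2 is at 0 in all 5.

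No gene of the related lists passed an adjusted p of 0.05 in the cultures by edgeR. Of 17 proneural targets tested, 4 were higher and 1 lower in the knockout without overlap between groups, where 21.3% of all tested genes were so in each direction, with a median log2 fold change of 0.16 beside 0.01 over all tested genes. Of 10 repressors 3 were higher without overlap (median 0.01), of 3 E-proteins 1 was lower (median -0.05), and of 9 upstream progenitor factors 2 were higher and 1 lower (median 0.05). Of 13 later excitatory neuron factors 2 were higher and 1 lower (median 0.00), of 3 other bHLH factors 2 were higher and 1 lower (median 0.15), and of 6 GABAergic lineage factors 1 was higher and 2 lower (median -0.20).

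No marker of another cell type passed the test in the cultures, and some lists had groups without overlap in their summed level. Of 12 astrocyte markers, 7 were lower in the knockout without overlap, against 21.3% of all genes, and their summed level was 1157 to 1293 CPM in wild-type and 610.3 to 845.2 CPM in knockout cultures. The summed interneuron markers were at 221.3 to 357.0 and 165.3 to 182.4 CPM, with Dlx5, Dlx6os1, Sst and Slc32a1 under 0.1 CPM. Most of that sum was Erbb4, at 191.5 and 300.2 CPM in wild-type and 155.6, 147.0 and 144.6 CPM in knockout cultures. Immature granule neuron markers, 6 of 12 higher in the knockout without overlap (median log2 fold change 0.46), summed to 167.6 to 179.3 and 183.9 to 227.7 CPM. Ependymal markers, 4 of 4 higher without overlap, summed to 24.4 to 25.0 and 25.6 to 31.5 CPM, and pyramidal neuron markers to 243.8 to 271.5 and 288.5 to 302.4 CPM. Summed neuroblast markers were at 536.2 to 596.9 CPM in wild-type and 599.8 to 660.9 CPM in knockout, RGL markers at 7251 to 7957 and 6038 to 7369 CPM, nIPC markers at 813.4 to 893.3 and 953.9 to 1018 CPM, and oligodendrocyte precursor markers at 7405 to 7678 and 7615 to 8653 CPM. Their part in the Bhlhe22 and Insm1 values was not tested.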

How the data were processed

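The data are 3 single-cell libraries of P7 dentate gyrus, 1 per genotype, and 5 bulk libraries of neurospheres (2 wild-type, 3 Larp7f/f;Emx1-Cre). For single cells the authors deposited matrices of raw UMI counts, made with Cell Ranger (version 4.0.0 by the matrix headers, while the methods name another) on, by the processing notes, the mm10 build. For neurospheres they deposited raw read counts for each gene. The paper's methods name Minimap2 as the aligner, and the submitters' processing notes list featureCounts and Trimmomatic. Their treatment of shared reads and of strand is unstated. Of the neurosphere columns, 5 matched no sample and were not used. Chromatin libraries of the series were not analysed here.

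A cell was kept with over 500 genes and a mitochondrial share under 15%, which left 10997, 6685 and 6531 cells. Counts were normalized to 10000 per cell, and 2000 variable genes, scaled library by library, gave 30 components, a graph of 15 neighbours and Leiden clusters (resolution 1, with Python 3.11.15, scanpy 1.11.5, numpy 2.4.6, scipy 1.17.1, igraph 0.11.9, leidenalg 0.10.2). The 9 members and 276 genes in all, most of them cell-cycle genes, did not enter the clustering. Names were given where at least 3 markers of a list were detected in 10% of a cluster's cells and raised 1.5-fold with a mean log2 fold of at least 0.5. These limits, and the choice of the unnamed clusters that link the lineage, were set after the data were seen, and rebuilt names may differ from the study's. Doublets were kept. Scrublet called 2, 272 and 407 cells, where 2 shows that it did not work in the wild-type library, so the alternative removed the 6% of cells with the highest scores. Levels are summed UMIs with exact Poisson intervals, ratios have exact conditional binomial intervals and shares exact Clopper-Pearson intervals, at 95%, for counting error only. A difference was described as a fold when it reached 1.5 with at least 100 UMIs.

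Neurosphere counts were tested with edgeR 4.0.16 in R 4.3.3 (TMM, filterByExpr, quasi-likelihood test, Benjamini-Hochberg over 17753 genes), with DESeq2 1.42.0 as an alternative. Entrez identifiers gave a symbol to 39373 of 40814 genes. The biological coefficient of variation was 19.4%, and libraries of a group differed beyond sampling noise (18.7 to 61 by chi-square over its degrees of freedom). The 9 members, the gene lists and the markers were chosen with earlier results of these data known. Named genes were all 9 members, the 2 most alike genes of each, and Larp7, with list genes only where they passed an adjusted p of 0.05 in neurospheres, which none did. List genes named in the single cells were chosen after their values were seen. The steps were tested on simulated data.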

Additional observations from a re-analysis of the deposited data

Results flagged for a closer look

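In 3 cases the 2 mutant libraries lay on opposite sides of wild-type. With 1 library each the difference was not tested across animals. Which driver is which depends on the library titles, with which the paper's cell counts go. In nIPC-like cells the log2 ratio of Neurog2 was -0.25 in the nestin-Cre and 0.22 in the Emx1-Cre library, and that of Insm1 was -0.32 and 0.0781. Both kept these signs in 8 of 8 alternative settings. In neuroblast-like cells the log2 ratio of Eomes was 0.0878 in the nestin-Cre and -0.0167 in the Emx1-Cre library, both within counting error, and it changed sign between alternatives.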

How the results depend on the processing

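The number of neurosphere genes past an adjusted p of 0.05, 6 (3 higher, 3 lower), was set largely by the method. DESeq2 gave 1586 (726 higher, 860 lower), and testing without a filter on low counts gave 3 (1 higher, 2 lower). Leaving out 1 library gave 0 to 1905 genes (0 to 1050 higher, 0 to 855 lower): 1905 without wild-type replicate 1, 1 without knockout replicate 1 and 0 without knockout replicate 3. With the replicate number as a block, 0 genes passed (0 higher, 0 lower). Same-numbered cultures deviated together only weakly (r = 0.041 and 0.21), and nothing in the labels pairs them. Prox1 lay between -0.39 (without wild-type replicate 1) and 0.017 on the log2 scale, and turned from -0.20 to 0.017 without wild-type replicate 2 (adjusted p = 0.974), Insm1 passed in DESeq2 (adjusted p = 0.0140), and Bhlhe22 stayed between -1.97 and -1.73. Larp7 had adjusted p up to 0.344. The cause of these changes was not tested, except that the block and a left-out library leave fewer degrees of freedom.

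In single cells, 158 of 162 peak bins stayed within 1 bin. The numbers of members higher in a mutant stayed within 1.5 times in 42 of 42 cases, which is a wide limit for counts out of 9. In neuroblast-like cells of the Emx1-Cre library the number was 6 and ranged from 5 to 9. Of 408 log2 ratios, 140 moved beyond their counting interval. Depth limits Neurod2, Neurod6 and Bhlhe22 in RGL-like and nIPC-like cells.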

Other observations

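Some proneural targets and Notch-related genes also differed between the libraries. Gadd45g, a proneural target that halts division, measured 485.4 CPM in wild-type, 233.1 in nestin-Cre and 576.1 in Emx1-Cre neuroblast-like cells, with log2 ratios of -1.06 (-1.15 to -0.96) and 0.25 (0.17 to 0.32). In nIPC-like cells it measured 280.5, 209.9 and 329.3 CPM. Elavl4, a neuronal RNA-binding protein, was lower in neuroblast-like cells of both mutants, at 290.3 CPM in wild-type against 178.2 and 204.0 CPM. Dll3, which modulates Notch signalling, measured 28.7, 41.1 and 45.9 CPM in nIPC-like cells. These genes were picked from the written lists after their values were seen, each library is 1 per genotype, and no test was made.

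Sox11, which acts downstream of proneural factors in neuronal differentiation, measured 1977 CPM in wild-type, 3122 in nestin-Cre and 2828 in Emx1-Cre nIPC-like cells and 4237, 5097 and 4899 CPM in neuroblast-like cells. Tcf4, an E-protein that pairs with proneural factors, measured 2817, 3707 and 3394 CPM in nIPC-like and 3969, 4548 and 4232 CPM in neuroblast-like cells.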
